A study of Mus musculus with 28 samples.

Results

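Imprinted genes that act on fetal growth were followed in the developing mouse molar. They were taken by name from the table of read counts per gene: H19, Igf2, Igf2r, Dlk1, Meg3, Peg3, Mest, Plagl1, Grb10, and Ndn, 10 of 52636 genes. All 10 were found, and all 10 were among the 19101 genes that passed the filter on low counts. Each library was made from the total RNA of a single wild type tooth germ of the C57BL/6JOlaHsd strain, dissected from the embryo as a whole organ of epithelium and mesenchyme. There were 7 teeth from 7 embryos at E13 (labelled E13.5), 7 teeth from 6 embryos at E14 (labelled E14.5), and 7 teeth from 5 embryos at E16 (labelled E16.5). A second table of estimated counts, which lists 8 of the 10 genes, added 6 E15 teeth (embryonic day 15) from 6 embryos. The paper describes mouse teeth of E13, E14, and E16 only, and the E15 teeth carry their stage under another label field. For E15, a difference of stage cannot be told apart from one of preparation. The question was whether these genes fall together as the tooth germ grows from the bud stage onward.

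An imprinted gene is used mainly from the copy inherited from one parent. The paternally used members Igf2, Dlk1, Peg3, Mest, Plagl1, and Ndn and the maternally used members H19, Meg3, and Igf2r are known as a network whose members are high in fetal tissue, and in many organs of young mammals they decline together as growth slows after birth. Igf2, a growth factor, and H19, a noncoding RNA, lie side by side and share enhancers, and Dlk1 and Meg3 form a similar pair on another chromosome. Grb10, an adaptor that restrains insulin and IGF receptor signaling, is used from the maternal copy in most tissues.

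The members did not fall together. Dlk1, Grb10, and Ndn fell between E14 and E16, whereas with all 21 teeth the other 7 members passed the threshold in no comparison of E13, E14, and E16. Dlk1 at E16 was at 0.299 of its E13 level, Grb10 at 0.579, and Ndn at 0.664. H19 was the most abundant member per length at every stage, and its level at E16 was 0.997 of that at E13. In the same order these were 0.337, 0.630, 0.744, and 1.06 without the left tooth of embryo 3 at E16, which stood apart. Without that tooth Mest was also called, higher at E16 than at E13 and than at E14.

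Several members are also hosts of microRNAs. The hairpin of miR-675 lies in an exon of H19, that of miR-483 in an intron of Igf2, and that of miR-335 in an intron of Mest. The mature sequences from RefSeq (GRCm38.p6) are shown because the levels of these host genes are among the main results. Capitals mark the seed, bases 2 to 8, and none of the 6 seeds is shared with another of the 1738 mature microRNAs in the table.
miR-675-5p: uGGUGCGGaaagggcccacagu
miR-675-3p: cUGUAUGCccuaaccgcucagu
miR-483-5p: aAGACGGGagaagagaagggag
miR-483-3p: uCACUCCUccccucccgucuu
miR-335-5p: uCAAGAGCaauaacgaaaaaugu
miR-335-3p: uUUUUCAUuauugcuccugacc
The libraries measured the host transcripts, and mature microRNAs were not measured.

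A promoter window of 300 bases, from 250 before to 50 after the annotated start, was found in RefSeq for 9 of the 10 members (16 windows, GRCm38.p6). The windows of the 3 members that fell and of Meg3, the partner of Dlk1 that did not, are shown 5′ to 3′ on the strand of the gene, for Grb10 and Meg3 the more upstream of 2 windows each. Capitals mark 3 motifs searched on both strands, the TATA box TATAAA, the CCAAT box CCAAT, and the GC box GGGCGG, which were found in 13.6%, 37.4%, and 35.7% of 32851 windows. Neighboring or overlapping matches form 1 run of capitals.
Dlk1, chr12:109452573-109452872, plus strand: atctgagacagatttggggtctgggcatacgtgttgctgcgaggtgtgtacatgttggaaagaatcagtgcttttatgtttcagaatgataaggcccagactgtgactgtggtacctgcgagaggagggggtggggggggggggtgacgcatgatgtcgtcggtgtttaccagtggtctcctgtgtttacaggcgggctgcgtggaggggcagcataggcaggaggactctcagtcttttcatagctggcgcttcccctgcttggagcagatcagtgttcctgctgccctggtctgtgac
Meg3, chr12:109540746-109541045, plus strand: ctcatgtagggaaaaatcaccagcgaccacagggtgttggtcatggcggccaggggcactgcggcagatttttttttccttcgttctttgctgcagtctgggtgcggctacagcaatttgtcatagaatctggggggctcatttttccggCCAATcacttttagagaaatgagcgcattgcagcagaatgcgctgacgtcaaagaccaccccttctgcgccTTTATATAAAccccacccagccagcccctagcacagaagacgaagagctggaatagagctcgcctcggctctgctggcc
Grb10, chr11:12037371-12037670, minus strand: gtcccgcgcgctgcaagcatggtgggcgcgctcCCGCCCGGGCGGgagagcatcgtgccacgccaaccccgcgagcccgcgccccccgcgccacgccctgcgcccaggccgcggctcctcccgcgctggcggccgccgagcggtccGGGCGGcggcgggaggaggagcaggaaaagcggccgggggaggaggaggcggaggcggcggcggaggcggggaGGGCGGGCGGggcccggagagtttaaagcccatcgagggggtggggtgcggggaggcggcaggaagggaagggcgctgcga
Ndn, chr7:62348027-62348326, plus strand: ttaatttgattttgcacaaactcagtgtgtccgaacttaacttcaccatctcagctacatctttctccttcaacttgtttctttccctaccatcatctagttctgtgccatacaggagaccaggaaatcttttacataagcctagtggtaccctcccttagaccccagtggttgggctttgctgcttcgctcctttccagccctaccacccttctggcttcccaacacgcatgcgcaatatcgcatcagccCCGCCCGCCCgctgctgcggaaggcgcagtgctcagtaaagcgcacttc
The 3 windows of the members that fell differed widely in base composition. The Grb10 window held 45 CG dinucleotides, more than in 98.1% of all windows, and 5 GC boxes. The Dlk1 window held 9 CG dinucleotides and none of the 3 motifs, and the Ndn window held 11 and 2 GC boxes. The Meg3 window held 13 CG dinucleotides and its TATA box was matched on both strands. The matches describe letters only.

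Library totals ranged from 17814073 to 27115729 counts, and the 10 members took between 0.670% and 1.31% of the counts of a tooth. All 5 epithelial markers (Krt5, Krt14, Epcam, Cdh1, Trp63) and all 6 mesenchymal markers (Msx1, Pax9, Twist1, Prrx1, Pdgfra, Vim) passed the filter. The mesenchymal markers summed to between 3184 and 3409 CPM (counts per 1000000 of the library total scaled by TMM) at E13, between 2873 and 3264 at E14, and between 1125 and 2077 at E16. The epithelial markers summed to between 505 and 771 CPM at E13 and between 1310 and 2317 at E16. In whole tooth germs, fewer cells of a type and less RNA per cell cannot be told apart.

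The left tooth of embryo 3 at E16 stood apart. It was the lowest of the 7 E16 teeth for 9 of the 10 members and the highest for Meg3, and the 10 members took the smallest share of counts in it. Its summed osteoblast markers (1249 CPM against 4885 to 6608 in the other E16 teeth) and cartilage markers (34.6 against 152 to 204 CPM) were also the lowest, and its mesenchymal markers were the lowest of the 21 teeth. So were, among E16 teeth, its epithelial (1310 against 1894 to 2317 CPM), endothelial (178 against 379 to 467 CPM), macrophage, neuron and Schwann cell, and cycling cell markers. Its red cell and skeletal muscle markers were not. Its library was the smallest of the 21 (17814073 counts), and its TMM factor the highest (1.19). The members' differences between E16 and the other stages, the counts over lists, and the named neighbors are therefore also given without this tooth (20 teeth). At E13 the left tooth of embryo 7 was the highest for 9 members. Its skeletal muscle markers summed to 252 CPM, against 5.58 to 42.4 CPM in the other E13 teeth, and at E14 they did not exceed 14.4 CPM. The part of these markers in the members' levels was not tested.

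**Figure D1:**
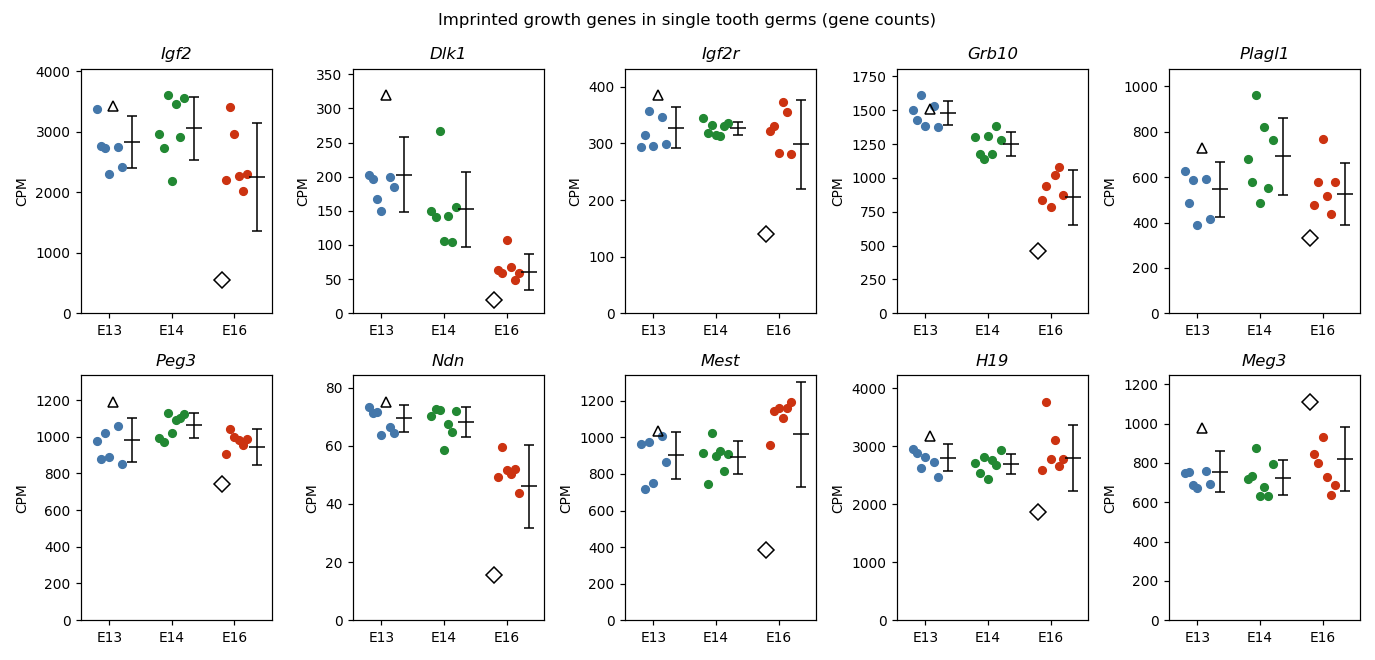
Levels of the 10 members (vertical axes, CPM, from 0) in each tooth germ at E13, E14, and E16 (7 teeth each), with the mean and SD of each stage as a dash and bar. Open diamonds are the left tooth of embryo 3 at E16 and open triangles the left tooth of embryo 7 at E13. Dlk1, Grb10, and Ndn step down at E16, and the diamond is the lowest E16 tooth in every panel but that of Meg3.

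Igf2 encodes a secreted growth factor of the insulin family. At E13 the lowest, median, and highest teeth were at 2306, 2753, and 3417 CPM, at E14 at 2178, 2957, and 3609 CPM, and at E16 at 552, 2272, and 3414 CPM. The stages overlapped widely, and the E16 tooth at 552 CPM was the one that stood apart. Igf2 differed between E16 and E13 by -0.33 on the log2 scale (SE 0.23, edgeR adjusted p = 0.260) and between E16 and E14 by -0.44 (SE 0.23, edgeR adjusted p = 0.152). The former was, without the left tooth of embryo 3, -0.14 (SE 0.13), with a 95% interval from -0.41 to 0.12, and the latter -0.26 (SE 0.13, edgeR adjusted p = 0.127).

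Dlk1 encodes a membrane and secreted protein of the delta family that holds back the differentiation of fat and other precursor cells. The lowest, median, and highest teeth were at 150, 197, and 320 CPM at E13. At E14 they were at 104, 143, and 268 CPM, and at E16 at 18.9, 59.1, and 107 CPM. Every E16 tooth was below every E13 tooth, and the highest E16 tooth, the right one of embryo 6, was above 2 E14 teeth, the right ones of embryos 5 and 6. Dlk1 fell by 1.74 on the log2 scale between E13 and E16 (SE 0.25, edgeR adjusted p = 4.80e-06) and by 1.33 between E14 and E16 (SE 0.25, edgeR adjusted p = 2.46e-04). Between E13 and E14 the difference was -0.41 (SE 0.25, edgeR adjusted p = 0.256). Of the 10 members it was the one with the largest change, and without the left tooth of embryo 3 the fall from E13 to E16 was by 1.57 (SE 0.20, edgeR adjusted p = 5.38e-07) and that from E14 by 1.16 (SE 0.20, edgeR adjusted p = 6.16e-05).

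In the comparison of E14 with E13, 0 of the 10 members were called at an adjusted p below 0.05 by edgeR, 0 by DESeq2, and 0 at an unadjusted p below 0.05. Of all genes tested, 19.7% were called, 11.3% higher and 8.47% lower at E14. The median log2 difference of the members was -0.022, and that of all genes -0.0083. Between E14 and E16, 3 of 10 members were lower and 0 higher by edgeR and by DESeq2, against 28.1% of all genes called and 13.1% lower, or 18.3% lower among the 9551 more abundant genes. Between E13 and E16 the counts were again 3 lower and 0 higher, against 41.3% of all genes called and 19.6% lower, or 26.5% lower among the more abundant genes. Read against this background, the count of 3 is not a result about the members as a group. No member passed an unadjusted p of 0.05 in the higher direction in either comparison. Without the left tooth of embryo 3, 1 member was called lower at E14 than at E13 (Grb10), against 13.8% of 19238 genes lower and 16.7% higher. In the same fit 3 were lower and 1 higher (Mest) at E16 than at E14, against 15.8% and 18.5% of all genes, and 3 lower and 1 higher (Mest) at E16 than at E13, against 23.1% and 25.5%. The median difference of the members between E13 and E16 was -0.095, beside -0.0095 over all genes.

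**Figure D2:**
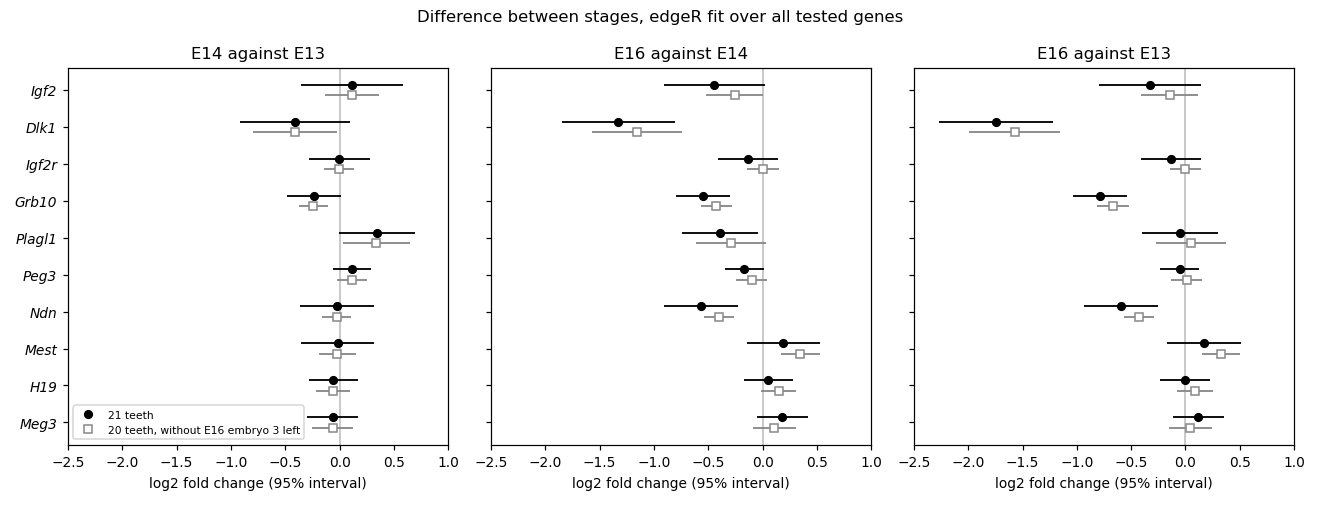
Log2 fold changes of the 10 members with their 95% intervals (horizontal axes) for E14 against E13, E16 against E14, and E16 against E13, from edgeR. Filled circles use the 21 teeth and open squares the 20 teeth without the left tooth of embryo 3 at E16. Dlk1, Grb10, and Ndn lie below 0 with their whole interval in both comparisons with E16, and the interval of Mest lies above 0 there in the squares.

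Igf2r encodes the receptor that takes Igf2 into the cell for breakdown. Its lowest, median, and highest teeth were at 294, 316, and 386 CPM at E13, at 314, 331, and 344 CPM at E14, and at 139, 323, and 374 CPM at E16. E14 was the tightest group, with a coefficient of variation of 3.52% between teeth against 11.1% at E13 and 26.1% at E16. The value at E16 was 11.5% without the left tooth of embryo 3. The log2 difference between E16 and E13 was -0.14 (SE 0.13, edgeR adjusted p = 0.446). It was -0.00034 (SE 0.070) without the left tooth of embryo 3, with a 95% interval from -0.15 to 0.14.

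Grb10 was at 1375, 1504, and 1614 CPM in the lowest, median, and highest teeth at E13. At E14 the values were 1142, 1280, and 1380 CPM, and at E16 they were 462, 871, and 1078 CPM. No E16 tooth reached the lowest E14 tooth, and at E14 only the highest tooth, at 1380 CPM, reached into the range of E13. Grb10 fell by 0.79 on the log2 scale between E13 and E16 (SE 0.12, edgeR adjusted p = 1.12e-05) and by 0.55 between E14 and E16 (SE 0.12, edgeR adjusted p = 1.24e-03). These falls were by 0.67 (SE 0.070, edgeR adjusted p = 1.69e-08) and 0.43 (SE 0.070, edgeR adjusted p = 2.93e-05) without the left tooth of embryo 3. The step from E13 to E14 was -0.24 (SE 0.12), and whether it was called depended on the teeth in the fit. It had an edgeR adjusted p of 0.175 with all 21 teeth and of 7.50e-03 without the left tooth of embryo 3 (SE 0.07), which is not part of that comparison but enters the shared estimate of the spread. In a fit of the E13 and E14 teeth alone, Grb10 was the only member called in this step, with an edgeR adjusted p of 2.38e-03. The size of the step was -0.24 there as well. An exact permutation test over the E13 and E14 teeth gave an unadjusted p of 1.17e-03.

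Plagl1 and Peg3 encode zinc finger proteins, and Plagl1 is a transcription factor known to act on other imprinted genes, Igf2 and H19 included. Plagl1 was at 390, 585, and 729 CPM in the lowest, median, and highest teeth at E13, at 486, 680, and 963 CPM at E14, and at 330, 516, and 770 CPM at E16. It was higher at E14 than at E13 by 0.34 on the log2 scale (SE 0.17) and lower at E16 than at E14 by a difference of -0.39 (SE 0.17), and neither passed the threshold (edgeR adjusted p = 0.168 and 0.0874). The latter rested on single teeth: it was -0.29 (SE 0.16, edgeR adjusted p = 0.159) without the left tooth of embryo 3 at E16, and -0.50 with an edgeR adjusted p of 0.0288 without the right tooth of embryo 6 at E16. Peg3 was the steadiest of the abundant members, with lowest and highest teeth at 849 and 1191 CPM at E13, at 970 and 1132 CPM at E14, and at 744 and 1040 CPM at E16. Its difference between E16 and E13 was -0.053 (SE 0.086, edgeR adjusted p = 0.659), and 0.011 (SE 0.069, edgeR adjusted p = 0.914) without the left tooth of embryo 3.

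Ndn encodes necdin, a protein of the MAGE family known to restrain cell division in neurons. The lowest, median, and highest teeth were at 63.8, 71.2, and 75.2 CPM at E13, at 58.5, 70.1, and 72.7 CPM at E14, and at 15.4, 50.4, and 59.6 CPM at E16. The E13 and E14 teeth formed a narrow band. All 7 E16 teeth were below all E13 teeth, and 1 E16 tooth at 59.6 CPM was above 1 E14 tooth at 58.5 CPM. Ndn fell by 0.59 between E13 and E16 (SE 0.17, edgeR adjusted p = 5.50e-03) and by 0.57 between E14 and E16 (SE 0.16, edgeR adjusted p = 0.0114) on the log2 scale. Leaving out the left tooth of embryo 3, Ndn fell from E13 by 0.43 (SE 0.067, edgeR adjusted p = 9.99e-06) and from E14 by 0.40 (SE 0.067, edgeR adjusted p = 4.27e-05).

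Mest encodes an enzyme of the hydrolase family that marks embryonic mesoderm. At E13 the lowest, median, and highest teeth were at 718, 965, and 1038 CPM. At E14 they were at 746, 907, and 1026 CPM, and at E16 at 385, 1144, and 1195 CPM. The other 6 E16 teeth ranged from 958 to 1195 CPM, and 5 of them were above every E13 and E14 tooth. With all teeth the difference between E16 and E13 was 0.17 (SE 0.16, edgeR adjusted p = 0.432). Without the left tooth of embryo 3, Mest rose by 0.33 on the log2 scale from E13 (SE 0.09, edgeR adjusted p = 2.56e-03) and by 0.35 from E14 (SE 0.09, edgeR adjusted p = 2.34e-03). Exons of Mest share 912 bases with those of Copg2 on the opposite strand, and the strand setting of the counting is not given in the sources used here. Copg2, at 65.4 CPM at E13, 56.0 at E14, and 61.0 at E16, did not pass the threshold between E13 and E16. It was lower at E14 than at E13, by a log2 difference of -0.22 (SE 0.067, edgeR adjusted p = 0.0204). Between E14 and E16 Copg2 differed by 0.12 (SE 0.067, edgeR adjusted p = 0.184), and without the left tooth of embryo 3 it was called higher at E16 in this comparison, by 0.16 (SE 0.061, edgeR adjusted p = 0.0417), as Mest was.

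H19, a noncoding RNA, was at 2468, 2813, and 3175 CPM in the lowest, median, and highest teeth at E13, at 2441, 2705, and 2929 CPM at E14, and at 1864, 2780, and 3769 CPM at E16. The medians of the 3 stages lay within the range of each single stage. The differences were -0.058 between E14 and E13 (SE 0.11), 0.053 between E16 and E14 (SE 0.11), and -0.0049 between E16 and E13 (SE 0.11), with a 95% interval of the last from -0.23 to 0.22 on the log2 scale. Their edgeR adjusted p were 0.761, 0.760, and 0.978. H19 differed, without the left tooth of embryo 3, by 0.15 between E16 and E14 (SE 0.079, edgeR adjusted p = 0.163) and by 0.087 between E16 and E13 (SE 0.079, edgeR adjusted p = 0.385). Meg3, the long noncoding RNA next to Dlk1, was at 670, 748, and 980 CPM at E13, at 633, 718, and 877 CPM at E14, and at 638, 799, and 1111 CPM at E16. It differed between E16 and E13 by 0.12 (SE 0.11, edgeR adjusted p = 0.440), and by 0.043 (SE 0.095) without the left tooth of embryo 3, which had its highest level.

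Divided by exon length, the order at E13 was H19 (1140 ± 93.4 CPM per kb, SD, n = 7), Igf2 (493 ± 75.1), Mest (229 ± 32.3), Grb10 (163 ± 9.53), Peg3 (73.7 ± 9.11), Plagl1 (69.9 ± 15.5), Meg3 (41.8 ± 5.82), Dlk1 (35.8 ± 9.73), Igf2r (35.2 ± 3.90), and Ndn (18.8 ± 1.23). The upper 5 places did not overlap over teeth among H19, Igf2, Mest, Grb10, and Peg3, whereas Peg3 overlapped with Plagl1, Plagl1 with Meg3, Meg3 with Dlk1, and Dlk1 with Igf2r. Exon length counts every annotated exon base of a gene once, 18089 bases for Meg3 and 2460 for H19. The order therefore depends on the annotated transcripts. At E14 Plagl1 and Peg3 changed places, with overlapping ranges, and so did Igf2r and Dlk1. At E16 Dlk1 had moved to the last place, at 10.7 ± 4.61 CPM per kb, below Ndn at 12.5 ± 3.87, and the ranges of these neighbors overlapped. H19 did not overlap with Igf2 at any stage, and its lowest E16 tooth was at 758 CPM per kb against a highest Igf2 tooth of 597.

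Neighboring genes were then compared within each library, where scaling between libraries has no part. The ratio of Meg3 to Dlk1 (log2, with 0.5 CPM added) had a mean of 1.92 ± 0.17 over the 7 E13 teeth (SD), which became 2.30 ± 0.30 over the 7 of E14 and 3.87 ± 0.90 over the 7 of E16. At E16 it ranged from 3.12 to 5.84, above every E14 tooth, the highest of which was at 2.61. The ratio was higher at E16 than at E13 by 1.94 and than at E14 by 1.56 (two-sided exact permutation test over 3432 splits, adjusted p = 2.62e-03 for both over 9 comparisons), and higher at E14 than at E13 by 0.38 (exact permutation, adjusted p = 0.0346). The last missed the threshold without the E13 tooth of embryo 1, 7, or 10 or the right E14 tooth of embryo 6. Without the left tooth of embryo 3 the E16 ratio was 3.54 ± 0.24 (n = 6), and it was again above every E14 tooth (exact permutation, adjusted p = 2.62e-03). The pair therefore separated at the level of its ratio, with Dlk1 lower at E16 and Meg3 not called.

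The mean ratio of H19 to Igf2 was 0.00097 ± 0.15 over the E13 teeth, -0.17 ± 0.18 over those of E14, and 0.45 ± 0.60 over those of E16 (SD). It was higher at E16 than at E14 by 0.62 (exact permutation, adjusted p = 6.99e-03) and than at E13 by 0.45 (exact permutation, adjusted p = 0.0346). Without the left tooth of embryo 3, whose ratio was 1.75, these were 0.40 (exact permutation, adjusted p = 0.0140) and 0.23 (exact permutation, adjusted p = 0.0671). The former thus passed the threshold with and without this tooth, and the latter only with it, and it also missed the threshold when any E13 tooth but that of embryo 5 was left out (adjusted p from 0.0650 to 0.0902, exact permutation). The ratio of Igf2r to Igf2 passed the threshold in no comparison, with exact permutation adjusted p from 0.110 to 0.386, or from 0.194 to 0.386 without that tooth.

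**Figure D3:**
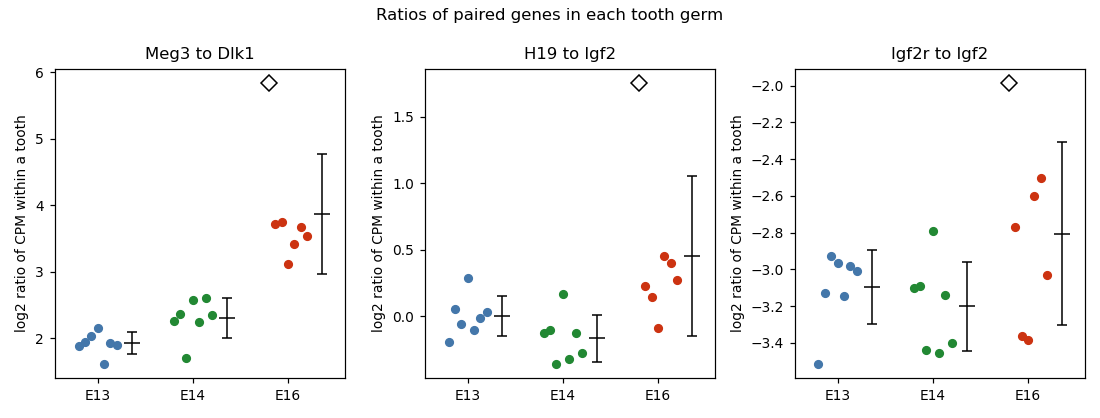
Log2 ratios of CPM within each tooth germ (vertical axes) for Meg3 to Dlk1, H19 to Igf2, and Igf2r to Igf2 at E13, E14, and E16 (7 teeth each), with the mean and SD of each stage. Open diamonds are the left tooth of embryo 3 at E16, the highest of the 21 teeth in each panel. The ratio of Meg3 to Dlk1 at E16, from 3.12 upward, lies above all E14 teeth.

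Although the stages did not move the members together, teeth of the same stage ranked alike in the 2 pairs of neighbors, the only members tested for this. Over the 6 embryos of E14, the levels of H19 and Igf2 had a Pearson r of 0.95 (exact permutation p = 4.17e-03, adjusted p = 5.56e-03 over 4 relations) and a Spearman rho of 0.94 (exact permutation p = 0.0167). Over the 7 embryos of E13 their r was 0.74 (exact permutation p = 0.0536) and rho 0.79 (exact permutation p = 0.0480). Without the 2 embryos farthest from the median H19 level, r was 0.42 over 5 embryos. Leaving these out narrows the range of H19, so this value cannot tell how far the relation at E13 rests on them. For Meg3 and Dlk1, r was 0.98 at E13 (exact permutation p = 9.92e-04) and 0.94 at E14 (exact permutation p = 2.78e-03), with rho at 0.89 (exact permutation p = 0.0123) and 0.94 (exact permutation p = 0.0167). Without the 2 farthest embryos r was 0.89 and 0.90. All genes of a tooth share its library, and E16 was not tested because it has 5 embryos. These relations are not shown to be particular to neighbors. Plagl1, on chromosome 10, was also highest at E14 in the tooth of embryo 3 and lowest in that of embryo 5, as Igf2 was.

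The right tooth of embryo 5 was the lowest for 5 members at E13 (Igf2, Dlk1, Meg3, Plagl1, Ndn) and the right tooth of embryo 5 at E14 for 5 (H19, Igf2, Meg3, Plagl1, Ndn). The right tooth of embryo 3 at E14 was the highest for 6 (Igf2, Dlk1, Meg3, Peg3, Mest, Plagl1) and the lowest for Grb10. As a description over the 10 members, their mean log2 level (log2 of CPM + 1) was 9.39 ± 0.16 in the E13 teeth, 9.36 ± 0.14 in the E14 teeth, and 8.998 ± 0.41 in the E16 teeth (SD), or 9.15 ± 0.11 leaving out the left tooth of embryo 3. The spread between teeth of a stage was unequal among the members. Among the 9551 more abundant genes, the SD of log2 levels within stages was at percentile 98.6 for Dlk1, 98.4 for Igf2, 94.2 for Ndn, 92.8 for Mest, and 91.2 for Plagl1, but at 52.5 for H19 and 27.1 for Peg3.

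The genes whose levels over the 21 teeth were most like those of Igf2 were Sf3a1 (r = 0.97), Tmem88 (r = 0.96), and Ube4b (r = 0.96). For H19 they were Sod2 (r = 0.83), Fn1 (r = 0.83), and Cox4i1 (r = 0.82). These values were 0.83, 0.83, and 0.82 for Igf2 and 0.65, 0.69, and 0.62 for H19 without the left tooth of embryo 3. The 6 genes were ranked with this tooth included and not again without it. That no other member was among them does not show how the members vary together.

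The members' chromosomal neighbors were taken from a list of 60 other imprinted genes. Of these, 29 lie within 1 Mb of a member, and 24 of them passed the filter. Between E13 and E16, 10 were lower and 6 higher, beside 19.6% lower and 21.6% higher among all genes. The counts were 12 and 6 without the left tooth of embryo 3, beside 23.1% and 25.5% of all genes. Over the whole list 19 of 53 tested were lower and 13 higher (22 and 14 without that tooth), with a median log2 difference of -0.14 beside -0.0095 over all genes. Neighbors of a member moved in the same direction as it at some loci and in the opposite direction at others.

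On chromosome 12, around Dlk1 (109452823 to 109463336) and Meg3 (109541001 to 109571726), the protein-coding neighbors changed most. Rtl1, a retrotransposon-derived gene needed in the placenta, fell by 2.44 on the log2 scale (SE 0.23, edgeR adjusted p = 4.77e-09), from 4.26 CPM at E13 to 0.780 at E16. Begain, which encodes a synaptic protein, fell by 1.21 (SE 0.09, edgeR adjusted p = 1.62e-10). Dio3, the deiodinase that inactivates thyroid hormone, rose by 2.22 (SE 0.30, edgeR adjusted p = 1.31e-06), from 4.39 to 20.5 CPM. The noncoding RNAs that lie downstream of Meg3 were not called with all teeth, Rian at -0.28 (SE 0.13, edgeR adjusted p = 0.0916) and Mirg at -0.25 (SE 0.14, edgeR adjusted p = 0.174). Both passed the threshold without the left tooth of embryo 3, at -0.43 and -0.35 (edgeR adjusted p = 1.23e-04 and 0.0238), unlike Meg3. Rtl1 was then at -2.40, Begain at -1.19, and Dio3 at 2.43, each called as before.

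On chromosome 7, around Ndn (62346569 to 62350262), the 3 listed neighbors were all lower, as Ndn was. Magel2, another MAGE family gene, fell by 0.68 (SE 0.14), Mkrn3, a ring finger gene, by 1.11 (SE 0.18), and Peg12 by 1.28 (SE 0.16), with edgeR adjusted p of 2.99e-04, 1.67e-05, and 6.64e-07. Around Igf2 (142650766 to 142666816) and H19 (142575529 to 142578143), 8 neighbors were tested. Cdkn1c, a brake on the cell cycle, fell by 0.58 (SE 0.14, edgeR adjusted p = 1.67e-03), Tssc4 and Nap1l4 were lower, and Cd81 and Slc22a18 were higher. Kcnq1ot1, the long noncoding RNA of the adjoining domain, differed by 0.032 (SE 0.12, edgeR adjusted p = 0.860). Leaving out the left tooth of embryo 3, Magel2 was at -0.65, Mkrn3 at -1.09, Peg12 at -1.13, and Cdkn1c at -0.45, all called lower, and Kcnq1ot1 was at -0.11 (SE 0.067, edgeR adjusted p = 0.178).

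At the other loci the neighbors of members that were not called changed in both directions. Next to Peg3 (chromosome 7, 6703892 to 6730431), Usp29 fell by 0.58 (SE 0.11) and Zim1 rose by 0.42 (SE 0.11), with edgeR adjusted p of 1.85e-04 and 3.40e-03. Airn, the noncoding RNA transcribed across Igf2r (chromosome 17, 12682406 to 12769664) on the opposite strand, rose by 0.44 (SE 0.11, edgeR adjusted p = 2.47e-03), while Igf2r itself was at -0.14. Without a known strand setting, reads from introns of Igf2r and from Airn cannot be told apart. Klf14, near Mest (chromosome 6, 30723547 to 30748465), rose by 1.06 (SE 0.27, edgeR adjusted p = 2.85e-03). Phactr2, near Plagl1 (chromosome 10, 13060504 to 13131694), fell by 0.41 (SE 0.11, edgeR adjusted p = 3.01e-03). Ddc, near Grb10 (chromosome 11, 11930508 to 12038683), was not called, at -0.18 (SE 0.23, edgeR adjusted p = 0.551). When the left tooth of embryo 3 was left out these were at -0.60 for Usp29, 0.38 for Zim1, 0.38 for Airn, 1.23 for Klf14, -0.33 for Phactr2, and -0.26 for Ddc, and Ddc was again the one not called.

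**Figure D4:**
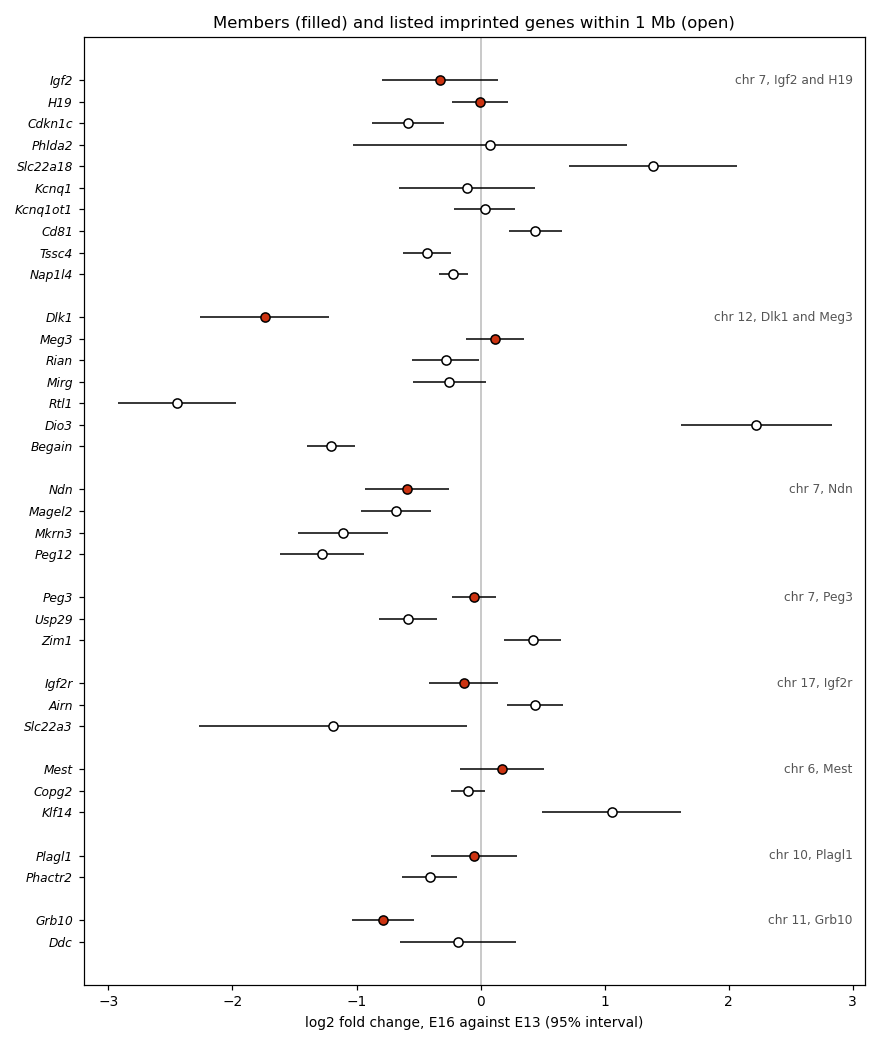
Log2 fold changes between E13 and E16 with 95% intervals (horizontal axis) for the 10 members (filled) and the 24 tested imprinted genes within 1 Mb of them (open), grouped by locus. All genes of the Ndn locus lie below 0, whereas the Dlk1 and Meg3 locus spans from Rtl1 at -2.44 to Dio3 at 2.22.

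Elsewhere in the list of imprinted genes, the largest decreases between E13 and E16 were those of Asb4 (by 2.58 on the log2 scale, SE 0.15, edgeR adjusted p = 1.10e-12) and Peg10, a retrotransposon-derived growth gene (by 2.57, SE 0.25, edgeR adjusted p = 5.94e-09). Both were lower already at E14 than at E13, by 1.04 and 0.86. Cdkn1c had the highest level per length in the list. Of the 24 genes listed for the IGF axis, which carries the signal of Igf2, 22 were tested, and 7 were higher and 6 lower at E16 than at E13, beside 21.6% higher and 19.6% lower among all genes. Without the left tooth of embryo 3 these were 11 higher and 7 lower, where the calls over all genes also rose, to 25.5% higher and 23.1% lower. Igfbp7, a binding protein, rose by 3.06 (SE 0.22), Igfals, which stabilizes circulating IGF, by 2.90 (SE 0.82) from below 1 CPM, Pappa2, a protease that frees IGF from its binding proteins, by 2.67 (SE 0.25), and Stc2, an inhibitor of such proteases, by 2.09 (SE 0.28). Their edgeR adjusted p were 5.58e-11, 6.21e-03, 5.04e-09, and 1.45e-06. Without that tooth, beside 11 higher, the 7 lower were Lin28b (-2.16), Igf2bp1 (-1.60), Hmga2 (-0.90), Igf2bp3 (-0.67), Irs1 (-0.37), Igf2bp2 (-0.33), and Plag1 (-0.30). Igfbp5, the listed gene with the highest level per length, differed by 0.39 (SE 0.20, edgeR adjusted p = 0.130), and by 0.57 (SE 0.10, edgeR adjusted p = 6.88e-05) without that tooth.

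Of 14 genes that maintain imprints or DNA methylation, 11 were tested, and 6 were lower and 1 higher at E16 than at E13, beside 19.6% lower and 21.6% higher among all genes, or 26.5% lower among the more abundant ones. They were 7 and 1 without the left tooth of embryo 3, beside 23.1% and 25.5%. Trim28, a corepressor that protects imprints, fell by 0.67 (SE 0.17), Dnmt3a, a DNA methyltransferase, by 0.58 (SE 0.10), Dnmt1, the maintenance methyltransferase, by 0.53 (SE 0.12), and its partner Uhrf1 by 0.47 (SE 0.14). Their edgeR adjusted p were 2.73e-03, 2.66e-05, 7.07e-04, and 8.03e-03. Without that tooth the differences were -0.51, -0.48, -0.40, and -0.33, all called lower. Over the same comparison without that tooth, 5 of 6 cycling cell markers were lower, beside 23.1% of all genes. Of the 6 mesenchymal markers 5 were lower and 1, Vim, was higher (0.34, SE 0.057, edgeR adjusted p = 2.43e-05). In the same fit 5 of 5 epithelial and 6 of 6 macrophage markers were higher, beside 25.5% of all genes. The part of these shifts in the members' levels was not tested.

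In the table of estimated counts, which was made with salmon, the 8 listed members could be followed through E15. The levels are scaled within this table and are not comparable with those above. The paper does not describe the E15 teeth, so differences of E15 from the other stages may also hold differences of preparation. Plagl1 spread more widely over the E15 teeth, from 297 to 1450 CPM, than over those of E13 (461 to 877 CPM) or E16 (457 to 959 CPM). In the teeth of embryos 1, 3, 4, 5, 6, and 8, Plagl1 was at 467, 655, 297, 1158, 1230, and 1450 CPM. Igf2 was at 1736, 2365, 2158, 2959, 3582, and 4705 CPM in the same order, and Dlk1 at 53.4, 86.4, 109, 145, 171, and 202 CPM. The teeth of embryos 5, 6, and 8 were the highest for all of these, in contrast to Grb10, which was at 1317, 1416, 1275, 998, 1053, and 1174 CPM. The cycling cell markers of these teeth summed to 1855, 1751, 1775, 2779, 2737, and 2779 CPM, and their part in the members' levels was not tested.

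Between E13 and E15, 2 of the 8 members were called, both lower, against 26.8% of all genes called and 8.49% lower. Grb10 fell by 0.51 on the log2 scale (SE 0.13, edgeR adjusted p = 4.94e-03), with every E15 tooth below every E13 tooth, the highest E15 tooth being at 1416 and the lowest E13 tooth at 1590 CPM. Dlk1 fell by 0.89 (SE 0.28, edgeR adjusted p = 0.0228), from between 175 and 372 CPM to between 53.4 and 202 CPM. Its adjusted p was 0.0596 without the left tooth of embryo 7 at E13 and 0.0518 without the left tooth of embryo 3 at E15. Peg3 differed by 0.25 (SE 0.10, edgeR adjusted p = 0.0555) and was called higher without the left tooth of embryo 3 at E16, with an adjusted p of 0.0227, as it was without the E13 tooth of embryo 7 or the E15 tooth of embryo 1 or 4. Between E15 and E16, 0 of the 8 were called by edgeR and 0 by DESeq2, against 6.33% of all genes called and 2.69% lower, and all 8 differences were below 0. At an unadjusted p below 0.05, 4 were lower: Dlk1 (-0.85), Ndn (-0.45), Peg3 (-0.27), and Grb10 (-0.27). Dlk1, at an edgeR adjusted p of 0.0789, was called without the right tooth of embryo 1 at E15 (adjusted p = 0.0222) or the right tooth of embryo 6 at E16 (adjusted p = 0.0243), Peg3 without the right tooth of embryo 4 at E15 (adjusted p = 0.0428), and Ndn without the left tooth of embryo 3 at E16 (adjusted p = 0.0247). Of the share of calls in the E15 and E13 comparison that were higher, 68.3% with TMM scaling was 59.2% with RLE size factors and 56.2% with library totals.

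**Figure D5:**
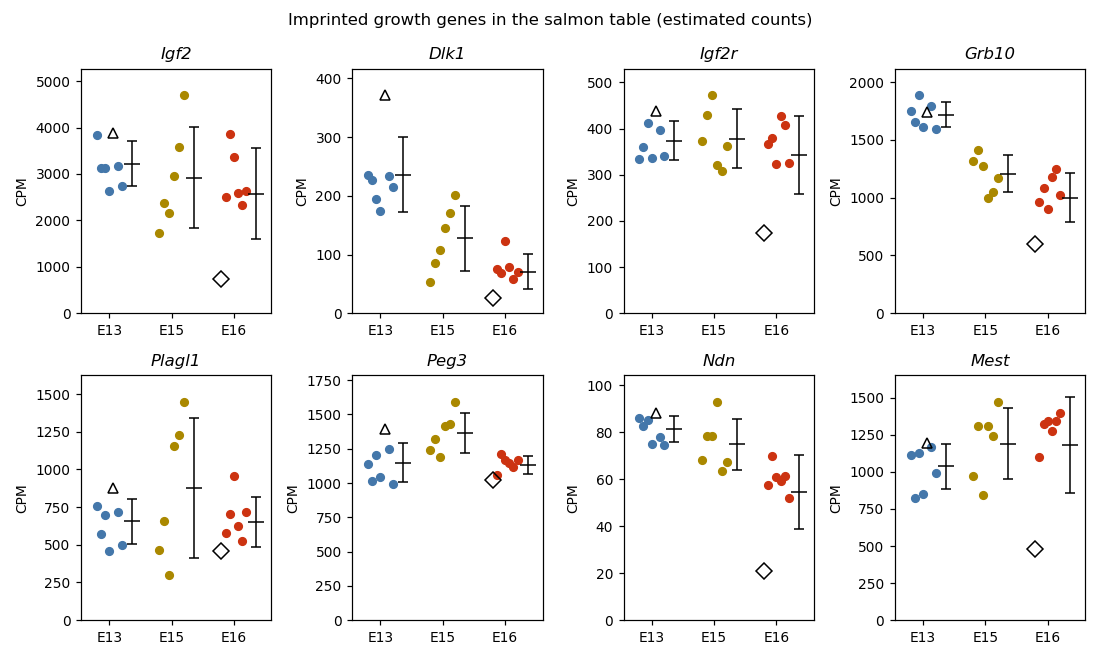
Levels of the 8 listed members (vertical axes, CPM in the salmon table, from 0) in each tooth germ at E13 (7 teeth), E15 (6 teeth), and E16 (7 teeth), with the mean and SD of each stage. Open diamonds are the left tooth of embryo 3 at E16 and open triangles the left tooth of embryo 7 at E13. Grb10 is lower at E15 than at E13 in every tooth, and the E15 teeth spread widely for Plagl1, from 297 to 1450 CPM.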

How the data were processed

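RNAseq libraries of 21 single molar tooth germs (E13, E14, E16) were analyzed, with 6 E15 teeth in a second table. Of 7 labelled E15 teeth, 1 was not analysed here. Per the labels and the paper's methods, the authors ran bcl2fastq (2.17.1.14), filtered reads with AfterQC and Trimmomatic after FastQC, used STAR with the GRCm38 genome, and deposited raw counts per gene from HTSeq. The deposited expected counts of the second table were estimated with salmon, are whole numbers, and do not list H19 or Meg3; how its genes were chosen is not given in the sources used here. The column for embryo 10 at E13 carries a Roman numeral X. Symbols, coordinates, and exon lengths came from GENCODE M21 (GRCm38).

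Counts were fitted with the quasi-likelihood test of edgeR (4.0.16, R 4.3.3), 1 factor for stage, TMM, and filterByExpr, with Benjamini-Hochberg adjustment over 19101 genes (13447 in the salmon table) and a threshold of 0.05. The coefficient of variation between teeth was 21.2%. An SE is the log2 fold change over the root of its F statistic. CPM used TMM-scaled totals. Single values were compared with two-sided exact permutation tests over all splits of the teeth, or all orders of the embryos for correlations. Ranks were made with scipy (1.17.1). The edgeR fit and the permutation test were tested on simulated data. P-values measure the spread between teeth, some of which shared an embryo. Named genes were the 10 members and the 3 genes most like each of H19 and Igf2. From each list, the 4 called genes with the largest change between E13 and E16 were named, and the highest per length. The listed genes within 1 Mb of a member and the IGF axis genes called lower were added after their values were seen. Members and lists were chosen with earlier results of these data known. Alternatives were other scalings, filters, DESeq2 (1.42.0), summed embryos, side, embryo number, stage pairs, and leaving out each tooth. One marker of the list for dental epithelium is not reported here, and the counts and sums of that list leave it out.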

Additional observations from a re-analysis of the deposited data

Results flagged for a closer look

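Among 38 groups of 6 or 7 teeth, 6 had a tooth far from the others by Dixon's test, which flags about 1 group in 20 by chance. At E16 the left tooth of embryo 3 was the lowest for Igf2r (139 CPM), Mest (385 CPM), and Ndn (15.4 CPM). At E13 the left tooth of embryo 7 was the highest for Dlk1 (320 CPM) and Meg3 (980 CPM). At E14 the right tooth of embryo 3 was the highest for Dlk1 (268 CPM).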

How the results depend on the processing

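Dlk1, Grb10, and Ndn were called lower at E16 than at E13 and E14 under every alternative run, with each tooth left out as well. The E13 to E16 differences ranged from -1.80 to -1.73, -0.92 to -0.77, and -0.75 to -0.57 on the log2 scale over the alternatives other than leaving out a tooth. The calls over all genes changed more. They were 1677 for E14 against E13 (3767 as reported) and 5210 for E16 against E13 (7887) with embryo number as a replicate block, and 4889 for the latter with salmon counts. The embryo numbers do not pair teeth of different stages, since teeth of different embryonic days come from different embryos. Same-numbered teeth had correlations of their deviations from -0.090 to 0.20 over 15 pairs, and 5 of 19 teeth correlated best with their own number. The left and right teeth of 1 embryo had values from -0.088 to 0.17 over 3 pairs, so these correlations cannot show whether teeth share an embryo. Under the block Peg3 was called lower at E16 than at E14 (-0.25, adjusted p = 0.0471). In a fit of E13 and E14 alone, 1 member was lower (Grb10).

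Signs changed only in differences that were not called. Igf2r, E14 against E13, was at 0.00014 with RLE size factors, 0.00014 with DESeq2, 0.0029 under the block, and 0.0041 in the exact permutation test. H19, E16 against E13, was at 0.0019 with RLE size factors and with DESeq2, 0.00067 with library totals, and 0.0074 in a fit of both stages alone. Under the block, Igf2 for E14 against E13 was at -0.053, H19 for E16 against E14 at -0.0050, and Mest for E16 against E13 at -0.0025. Igf2r for E15 against E13 was at -0.027 with RLE size factors and DESeq2 and -0.054 with library totals, and Mest for E16 against E15 at 0.011, 0.011, and 0.016.

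With each tooth left out in turn, the ranges were 3077 to 5855 calls for E14 against E13 and 671 to 1382 for E16 against E15, the highest of each without the left tooth of embryo 3 at E16. Members called lower ranged from 0 to 1 for E14 against E13 and E16 against E15 and from 1 to 2 for E15 against E13. Members called higher ranged from 0 to 1 for both comparisons of E16 in the HTSeq counts and from 0 to 2 for E15 against E13 (Peg3, and Plagl1 without the right tooth of embryo 4 at E15). The ratio of H19 to Igf2 ranged from -0.22 to -0.12 for E14 against E13. It passed the threshold there only without the right tooth of embryo 5 at E14. For E16 against E13 it ranged from 0.23 to 0.54 and missed the threshold in 7 cases. The ratio of Meg3 to Dlk1 for E14 against E13 ranged from 0.33 to 0.48 and missed the threshold in 4 cases. That of Igf2r to Igf2 for E16 against E14 ranged from 0.26 to 0.49. It passed the threshold without either tooth of embryo 6 at E16. Signs of uncalled differences changed within these ranges: for E14 against E13, Igf2r -0.029 to 0.039, Meg3 -0.12 to 0.0095, Mest -0.067 to 0.018, and Ndn -0.045 to 0.0079; for E16 against E13, H19 -0.076 to 0.087, Peg3 -0.080 to 0.013, and Plagl1 -0.15 to 0.048; for E16 against E14, H19 -0.017 to 0.15 and Igf2r -0.18 to 0.0040; for E15 against E13, Igf2r -0.058 to 0.068; and for E16 against E15, Igf2 -0.31 to 0.0069 and Mest -0.095 to 0.12. The cause was not tested.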
